A study of Mus musculus with 2 samples.

Results

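Connexins are the subunits of gap junctions, and 7 connexin genes were followed across the cell types of the noise-exposed mouse cochlea: Gjb2, Gjb6, Gjb1, Gjc3, Gja1, Gja4 and Gja5. They were taken by gene symbol from the 32285 genes of both matrices, which list 20 connexin genes, so 13 others were left for comparison. The tissue came from wild-type C57BL/6J mice aged 4 to 6 weeks, and every ear was exposed for 2 hours to noise of 105 dB in the octave from 8 to 16 kHz and dissected 2 days afterwards. The Drug-NIHL library pooled 5 ears treated with a drug at 90 mg/ml ahead of the noise. The NIHL library pooled 5 ears from the opposite side of those mice, which had the noise without the drug. The series title writes the drug as VPA, which the labels do not spell out. Neither the labels nor the title give the route of treatment, so whether the drug reached the opposite ears is not known. Droplet capture with 3′ chemistry gave 1 library per group, so no spread between ears could be measured and no test between the groups was made. The intervals below cover counting error only.

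Gap junctions join neighbouring cells by channels that pass ions and small molecules. In the cochlea, the products of Gjb2 and Gjb6 form an epithelial network among supporting cells and a connective tissue network among fibrocytes and basal and intermediate cells of the stria vascularis, both of which are held to return potassium to the endolymph. Variants in the human counterparts of these 2 genes are a frequent cause of hereditary deafness. In nerve, Gjb1 encodes the connexin of myelin sheaths whose human counterpart is mutated in X-linked Charcot-Marie-Tooth disease, and Gjc3 encodes another connexin of myelinating glia. Gja1 is the connexin of astrocytes, bone cells and many connective tissue cells, while Gja4 and Gja5 are known from vessel walls.

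The epithelial pair lie side by side. On GRCm38, Gjb2 occupies chr14:57098600-57104702 and Gjb6 chr14:57123303-57133611, both on the minus strand with 18600 bases between them. Gjb1 occupies chrX:101376378-101385629 on the plus strand and Gjc3 chr5:137953461-137963098 on the minus strand. The 250 bases before the start of these genes are shown because the epithelial pair and the nerve pair each followed one another across cell types. They are from RefSeq on GRCm38.p6 and run 5′ to 3′ on the strand of the gene. Capitals mark matches on either strand to 4 words, namely the GC box GGGCGG, the TATA word TATAAA and the SOX-type words ACAAAG and ACAATG, none of which overlap in these windows. For Gjb1, RefSeq gives 4 starts and the window before the last of them is shown.
Gjb2, chr14:57104703-57104952, minus strand: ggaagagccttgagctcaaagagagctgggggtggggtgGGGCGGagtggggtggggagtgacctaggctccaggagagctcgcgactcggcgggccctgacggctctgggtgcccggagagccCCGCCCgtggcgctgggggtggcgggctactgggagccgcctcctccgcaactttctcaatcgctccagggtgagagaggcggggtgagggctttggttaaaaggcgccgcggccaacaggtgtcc
Gjb6, chr14:57133612-57133861, minus strand: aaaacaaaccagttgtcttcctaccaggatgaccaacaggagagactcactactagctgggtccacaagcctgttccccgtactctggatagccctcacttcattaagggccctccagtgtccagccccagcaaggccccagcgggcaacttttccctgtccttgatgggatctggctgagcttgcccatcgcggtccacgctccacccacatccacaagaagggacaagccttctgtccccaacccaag
Gjb1, chrX:101383482-101383731, plus strand: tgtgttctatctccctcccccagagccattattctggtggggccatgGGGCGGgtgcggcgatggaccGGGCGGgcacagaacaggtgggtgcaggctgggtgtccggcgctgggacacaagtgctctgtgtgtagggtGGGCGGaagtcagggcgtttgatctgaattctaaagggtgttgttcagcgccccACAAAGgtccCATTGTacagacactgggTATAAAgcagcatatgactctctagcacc
Gjc3, chr5:137963099-137963348, minus strand: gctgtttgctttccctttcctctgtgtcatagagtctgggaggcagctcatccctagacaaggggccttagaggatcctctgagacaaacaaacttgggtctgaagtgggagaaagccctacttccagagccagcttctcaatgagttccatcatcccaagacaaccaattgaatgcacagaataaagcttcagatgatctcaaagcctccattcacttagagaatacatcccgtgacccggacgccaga

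The 2 neighbours differ in composition. The Gjb2 window has 69.2% G and C, 18 CpG dinucleotides and 2 GC boxes, whereas the Gjb6 window has 56.8% G and C, 5 CpG and none of the 4 words. Over all 32851 windows of the RefSeq table the median was 52.4% G and C and 6 CpG. The Gjb1 window holds 3 GC boxes, a TATA word 23 bases before the start, ACAAAG at 51 bases and ACAATG, read on the other strand, at 41 bases. Before the other Gjb1 starts, counted along the gene, window 1 holds only ACAAAG, at 170 bases, and windows 2 and 3 hold none of the 4 words. The Gjc3 window holds none of the 4 words and has 48.8% G and C. GGGCGG occurred in 32.7% of all windows, TATAAA in 12.4%, ACAAAG in 16.5% and ACAATG in 10.7%. These shares are per window and do not allow for the choice among the Gjb1 starts. A match describes the letters of the window and does not show that a factor binds there.

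After filtering, 18509 Drug-NIHL cells with 33115060 UMIs (unique molecular identifiers, each standing for 1 captured transcript) and 15931 NIHL cells with 31781897 UMIs were compared, at medians of 1159 and 1104 UMIs per cell. The median share of mitochondrial UMIs was 6.65% in Drug-NIHL and 4.90% in NIHL cells. The barcode lists shared 111 sequences, of which 101 Drug-NIHL and 96 NIHL barcodes were among the cells kept. Clustering without any connexin gene gave 23 classes of at least 100 cells in each library, and each name below stands for cells like that type by its markers. Although the labels give sensory epithelium, organ of Corti supporting cells made up 4.28% of Drug-NIHL and 3.24% of NIHL cells and hair cells 0.902% and 0.628%. Schwann classes made up 21.6% of Drug-NIHL and 41.5% of NIHL cells. The markers for supporting cells were detected for 8 of 10 genes in Drug-NIHL and 9 of 10 in NIHL, with Hes5 at 0 in both. By the stricter rule used for naming, at 2 times the other cells and in 10% of cells, only 3 were. Tectb, Tecta and Otog of that list were among the leading genes of cluster 25, which was named other cochlear epithelium. Slc26a4, a marker of the latter, was among those of the supporting cells. The class named T or NK had Plac8 and Ly6c2, markers of monocytes or dendritic cells, among its leading genes. All markers fixed for fibrocytes, strial marginal and intermediate cells, myelinating Schwann cells, oligodendrocytes, endothelium, pericytes and smooth muscle were detected in both libraries.

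Levels are CPM, a gene's UMIs in a class scaled to a class total of 1000000 UMIs, and they are not divided by length because each 3′ UMI stands for a transcript whatever its length. In all, Gjb2 had 6459 UMIs in Drug-NIHL and 6000 in NIHL cells, Gjb6 had 5033 and 3943, Gjc3 had 3635 and 4797, Gjb1 had 1472 and 1830, Gja1 had 1140 and 759, and Gja4 had 542 and 435. Gja5 had 9 UMIs in Drug-NIHL and 6 in NIHL cells and was compared in no class. Droplets also hold RNA freed from other cells, so the highest level among macrophages, neutrophils and erythroid cells was kept as a free RNA level for each gene and library. It was 49.3 CPM in Drug-NIHL and 74.7 CPM in NIHL for Gjb2, 55.8 and 61.8 CPM for Gjb6, and 72.6 and 104 CPM for Gjc3. Erythroid cells set the Gjb2 level. Of their 36 Drug-NIHL cells with a Gjb2 UMI, 58.3% also held Gjb6, against 3.16% of the rest. The Gjb6 level in NIHL rests on 11 UMIs in 119 neutrophils. The level may thus hold more than free RNA, and the part of doublets in it was not tested. For the other connexins the free RNA level was 19.9 and 19.3 CPM (Gjb1), 19.1 and 7.73 CPM (Gja1), and 5.42 and 5.15 CPM (Gja4).

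**Figure D1:**
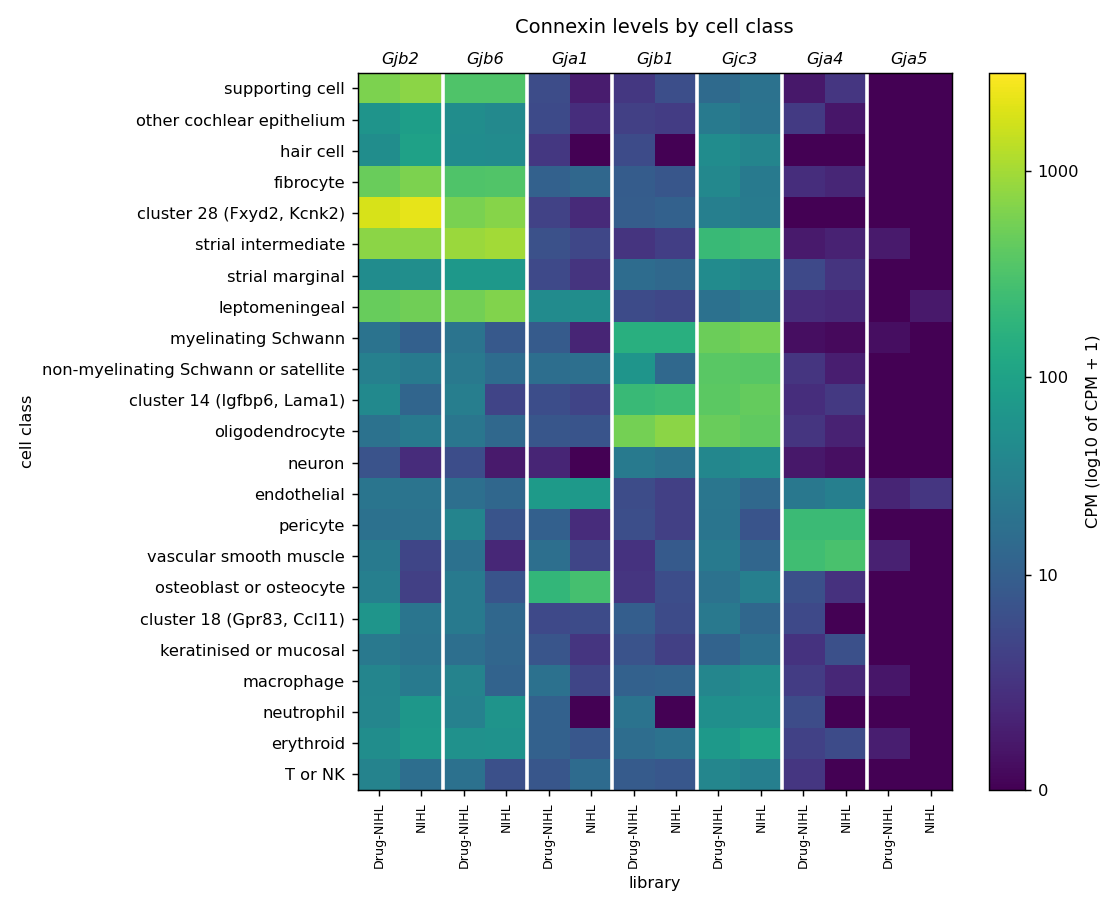
Heat map of the 7 connexins (columns, Drug-NIHL left of NIHL for each gene) in 23 classes (rows), coloured by log10(CPM + 1). Gjb2 and Gjb6 share their high rows, Gjb1 and Gjc3 share the rows of myelinating glia, and Gja4 is high in smooth muscle and pericytes.

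A ratio of Drug-NIHL over NIHL was called higher at 25% or more above 1 and lower at 0.8 or less, which is 0.32 either way on the log2 scale, where the sums held at least 20 UMIs together. Of 161 pairs of a connexin and a class, 86 reached that count, and 33 were higher, 16 lower and 37 in between. With the doublet caller's own thresholds 18 were higher and 21 lower, so the balance of the directions turned. Over all genes in the 23 classes, 18.8% of pairs were higher and 20.2% lower by the same bounds. Counting error alone gives many such calls. Of genes simulated without a difference, 78.3% in fibrocytes and 80.7% in Schwann cells stayed within the bounds. The connexin pairs divided by level. Of the 28 measured pairs above the free RNA level in both libraries, 1 was higher, 6 were lower and 21 in between. Of the 46 measured pairs in other classes that were not above it in both, 29 were higher, 5 lower and 12 in between. Most of the higher ratios therefore lay at levels also found in blood cells, such as Gjb2 in osteoblasts or osteocytes, at 30.5 CPM in Drug-NIHL and 3.54 CPM in NIHL (ratio 8.61, interval 3.24 to 28.8). That ratio was 1.45 with predicted doublets kept and 1.16 with the doublet caller's own thresholds. The sections that follow keep to levels above the free RNA level unless they say otherwise.

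**Figure D2:**
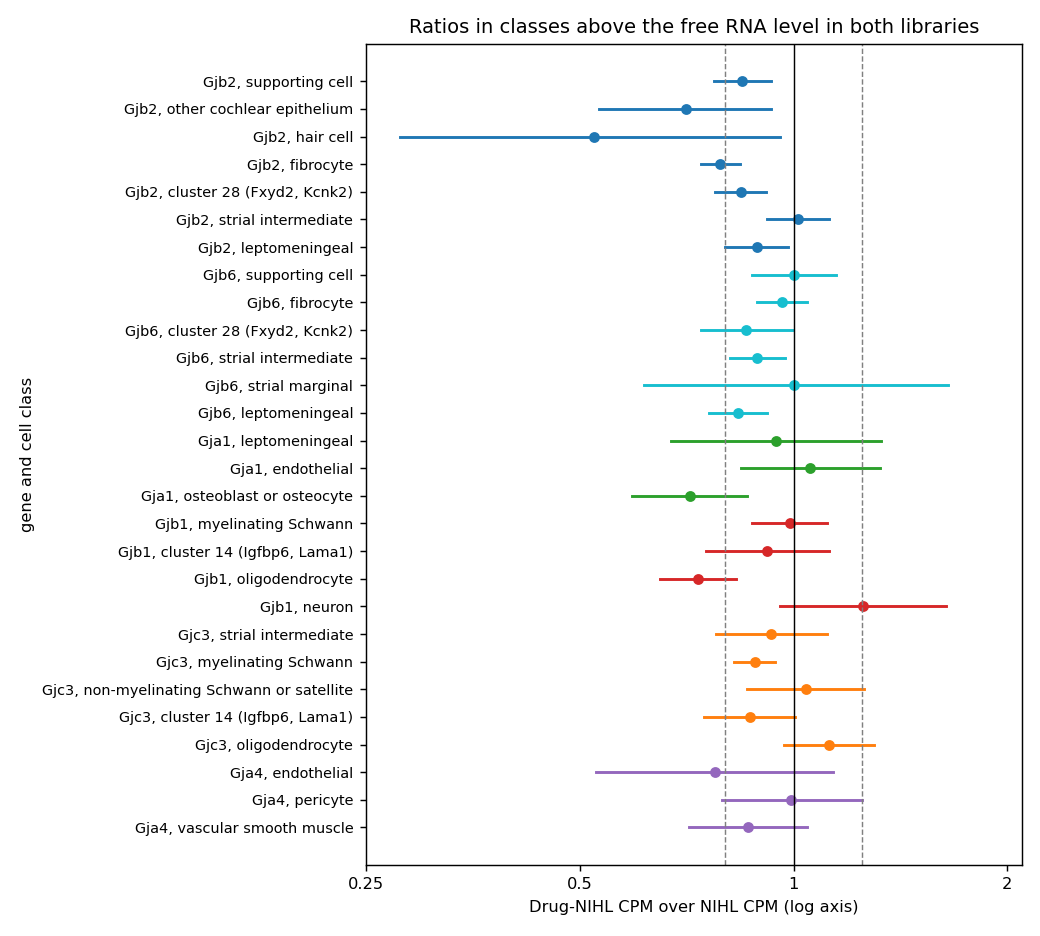
Ratio of Drug-NIHL over NIHL CPM (log axis) for the 28 measured pairs above the free RNA level in both libraries, with 95% counting intervals as bars and dashed lines at the bounds. The pairs run between 0.523 for Gjb2 in hair cells and Gjb1 in neurons, which lies just past the upper line, and 21 of them lie between the lines.

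Gjb2, which encodes the channel protein shared by both cochlear networks, was, among whole classes, highest in an unnamed cluster and in lateral wall and supporting cells. Cluster 28, led by Fxyd2, Kcnk2 and Nat8f3 and left unnamed because fewer than 3 markers of any type were detected, had 1864 CPM of Gjb2 in 172 Drug-NIHL cells and 2212 CPM in 151 NIHL cells. Strial intermediate cells, the melanocytes of the stria, had 749 CPM in Drug-NIHL and 739 CPM in NIHL. Supporting cells had 622 and 734 CPM, fibrocytes 487 and 618 CPM, and leptomeningeal cells 469.6 and 529 CPM. Every other compared class had less than 100 CPM in both libraries. In Drug-NIHL, fibrocytes and leptomeningeal cells, neighbours in that order, had overlapping intervals, and in NIHL strial intermediate and supporting cells did. By number of UMIs, fibrocytes held 32.1% of all Gjb2 UMIs in Drug-NIHL and 30.7% in NIHL. Cluster 28 held 15.1% and 23.3%, strial intermediate cells 14.9% and 10.8%, and supporting cells 14.2% and 14.7%. Of the fibrocyte Gjb2 UMIs, 913 of 2075 in Drug-NIHL and 1010 of 1839 in NIHL lay in a small group led by Pkp1, described below.

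Gjb6, the partner of Gjb2 in mixed channels, was, among whole classes, highest in strial intermediate cells. It had 888 CPM in Drug-NIHL and 999 CPM in NIHL cells of that class, 604 and 704 CPM in cluster 28, 546 and 654 CPM in leptomeningeal cells, 329 CPM in supporting cells of both libraries, and 328 and 341 CPM in fibrocytes. The order of the classes differed from that of Gjb2, since strial intermediate and leptomeningeal cells came ahead of supporting cells and fibrocytes in both libraries. Strial marginal cells, which face the endolymph, had 70.3 CPM of Gjb6 in Drug-NIHL and 70.2 CPM in NIHL, close to the free RNA level, and 47.9 and 51.5 CPM of Gjb2, which is under it.

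In fibrocytes, the potassium-buffering cells of the lateral wall, Gjb2 was lower in Drug-NIHL and Gjb6 was not past the bound. Gjb2 stood at 487 CPM in Drug-NIHL and 618 CPM in NIHL, a ratio of 0.788 (interval 0.740 to 0.840), beside 19.6% of genes called lower in that class. Gjb6 stood at 328 and 341 CPM, a ratio of 0.963 (0.887 to 1.04). The class was put together differently in the libraries. Cluster 4, led by Fst, Inmt and Coch, held 1094 of 2805 Drug-NIHL and 971 of 1606 NIHL fibrocytes. Of the cells of cluster 4, a finer clustering placed 193 Drug-NIHL and 181 NIHL cells in an osteoblast or osteocyte cluster led by Dlx5, Omd and Dmp1. Cluster 9, led by Emilin2 and Otor, held 750 and 405, and cluster 8, led by Slc4a11 and Otos, held 961 and 230.

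Within these clusters the connexins differed by a large factor. Cluster 4 had 261 CPM of Gjb2 in Drug-NIHL and 263 CPM in NIHL, a ratio of 0.993 (0.854 to 1.15), and 133 and 144 CPM of Gjb6. Cluster 9 had 30 CPM of Gjb2 in Drug-NIHL and 17.6 CPM in NIHL, under the free RNA level. Cluster 8 had 932 CPM of Gjb2 in Drug-NIHL and 2454 CPM in NIHL, and its Gjb6 stood at 648 and 1324 CPM. Cluster 8 itself held a group of 201 Drug-NIHL and 103 NIHL cells, led by Pkp1, Atp6v0a4 and Fat2, that a finer clustering set apart. It was singled out after its values were seen.

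The Pkp1 group had the highest connexin levels of any group of cells described here, with 2448 CPM of Gjb2 in Drug-NIHL and 3229 CPM in NIHL, a ratio of 0.758 (0.692 to 0.830) beside 21.9% of genes called lower. Its Gjb6 stood at 1391 and 1611 CPM, a ratio of 0.864 (0.763 to 0.978). The 4 markers of strial basal cells (Cldn11, Sox8, Nr2f2 and Slc2a1) summed to 2123 CPM in Drug-NIHL and 2708 CPM in NIHL cells of the group and the 9 fibrocyte markers to 3652 and 1586 CPM, with Emilin2 at 0 in both. The 11 myelinating Schwann markers summed to 9638 CPM in Drug-NIHL and 3868 CPM in NIHL cells of the group, beside Gjc3 at 177 and 76.7 CPM. Their part in the connexin ratios was not tested.

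Outside the Pkp1 group, the rest of cluster 8, 760 Drug-NIHL and 127 NIHL cells, had 545 CPM of Gjb2 in Drug-NIHL and 1578 CPM in NIHL, a ratio of 0.345 (0.307 to 0.389). Gjb6 there stood at 458 and 1001 CPM, a ratio of 0.458 (0.398 to 0.529). These were low ratios among cells where 39.1% of genes were called higher and 21.5% lower, with a median log2 ratio of 0.15 over all genes. Several marker sums moved with them. The choroid plexus list summed to 90.4 CPM in Drug-NIHL, with Folr1 at 0, and 4919.5 CPM in NIHL, the erythroid list to 12801 and 26024 CPM, with Klf1 at 0 in both, and the fibrocyte list to 30279 and 35173 CPM. Their part in the lower connexin levels was not tested.

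With the Pkp1 group left out, an alternative chosen after seeing the data, the fibrocyte class had 299 CPM of Gjb2 in Drug-NIHL and 311 CPM in NIHL. That ratio was 0.960 (0.878 to 1.05), inside the bounds, and Gjb6 then stood at 226 and 192 CPM (ratio 1.18, interval 1.06 to 1.32). With the 3 clusters weighted as in the NIHL library, the ratio of Gjb2 was 0.517 and that of Gjb6 0.598. Of 14 alternatives, 9 put the fibrocyte ratio of Gjb2 inside the bounds, and values over all 14 ran between 0.517 and 0.983. Gjb6 was between 0.598 and 1.22. The alternatives overlap, since the Pkp1 cells also fell outside the class with connexins allowed in the clustering and at resolution 2.0.

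**Figure D3:**
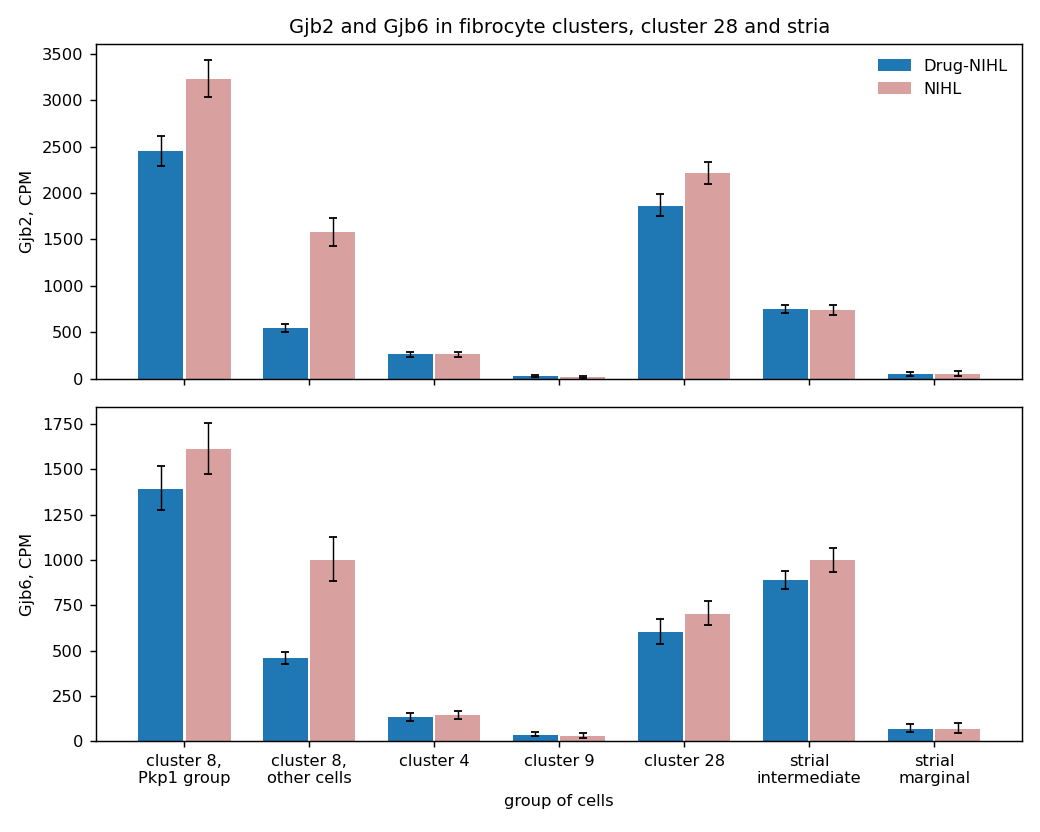
Gjb2 and Gjb6 (CPM, bars starting at 0, exact Poisson 95% intervals, Drug-NIHL left of NIHL) in the parts of the fibrocyte class, cluster 28 and the strial classes. Gjb2 reaches 2448 CPM in Drug-NIHL and 3229 CPM in NIHL in the Pkp1 group, and the other cells of cluster 8 show the widest gap, 545 CPM against 1578 CPM.

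In the stria, the libraries lay close together. Gjb2 in strial intermediate cells had a ratio of 1.01 (0.917 to 1.12), from 961 UMIs in 723 Drug-NIHL cells and 647 UMIs in 394 NIHL cells. Gjb6 had a ratio of 0.889 (0.813 to 0.972), whose interval lies below 1 but whose size is within the bounds. Thinned to 1000 UMIs each, 49.7% of 553 Drug-NIHL and 50.3% of 318 NIHL intermediate cells carried a Gjb2 UMI, against 61.3% of 723 and 68.8% of 394 before thinning, the median depth being 1487 UMIs in Drug-NIHL and 1882 UMIs in NIHL. In macrophages, which gave a background share, thinned cells carried one in 2.91% of 654 Drug-NIHL and 0.818% of 489 NIHL cells, with a median depth of 1529 UMIs in Drug-NIHL and 1746 UMIs in NIHL. In strial marginal cells the log2 ratio of Gjb6 was 0.00 (-0.70 to 0.72).

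In supporting cells (Ceacam16, Epyc), the epithelial side of the network, Gjb2 stood at 622 CPM in Drug-NIHL and 734 CPM in NIHL, a ratio of 0.847 (0.771 to 0.930) that did not pass the bound. Gjb6 stood at 329 CPM in both, a log2 ratio of 0.00 (-0.19 to 0.20). The other cochlear epithelium had 61.1 CPM of Gjb2 in Drug-NIHL and 86.7 CPM in NIHL, a ratio of 0.705 (0.533 to 0.929), beside 16.5% of genes called lower there. That call ended with doublets kept (0.810) and as the mean of each cell's CPM (0.910), and the ratio was 0.463 with the doublet caller's own thresholds. That class joined unlike clusters. Cluster 25, led by Tectb, Tecta and Otol1, which encode proteins of the tectorial membrane and of otoconia, had 85.5 CPM in Drug-NIHL and 193 CPM in NIHL (ratio 0.443, interval 0.314 to 0.617, beside 21.5% of genes called lower), whereas cluster 17, led by Crhbp and Vmo1, had 43.2 and 8.6 CPM, under the free RNA level. With both classes taken as one epithelium, Gjb2 had 348 CPM in Drug-NIHL and 363 CPM in NIHL, a ratio of 0.960 (0.879 to 1.05), and Gjb6 had 193 and 164 CPM, a ratio of 1.17 (1.04 to 1.33). The Gjb2 ratio of the whole was thus nearer 1 than that of either class. Supporting cells were 792 of 1402 Drug-NIHL and 516 of 1018 NIHL cells of it. With its clusters weighted as in the NIHL library, the ratio was 0.828 for Gjb2 and 1.03 for Gjb6.

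Hair cells, which form no gap junctions in the mature organ of Corti, had 50.3 CPM of Gjb2 from 19 UMIs in Drug-NIHL and 96.1 CPM from 31 UMIs in NIHL. The ratio of 0.523 (0.279 to 0.956) stood beside 27.5% of genes called lower, and the Drug-NIHL level was close to the free RNA level of 49.3 CPM. As the mean of each cell's CPM the ratio was 0.998. Cluster 18, led by Gpr83, Ccl11 and Aard, had 63.6 CPM from 39 UMIs in Drug-NIHL and 21.3 CPM from 16 UMIs in NIHL, a ratio of 2.99 (1.63 to 5.74) beside 15.8% of genes called higher. Of those UMIs, the top cell held 20.5% in Drug-NIHL and 31.3% in NIHL, and the NIHL level was under the free RNA level.

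Cluster 28 and the leptomeningeal cells had ratios below 1 for both genes, all within the bounds. In cluster 28, Gjb2 had a ratio of 0.843 (0.776 to 0.915) and Gjb6 of 0.858 (0.740 to 0.993). In the leptomeningeal cells, which line the brain and nerve, Gjb2 had 0.887 (0.801 to 0.983) and Gjb6 0.835 (0.760 to 0.917). The choroid plexus markers summed to 13.4 CPM in Drug-NIHL cells of cluster 28, with Prlr, Clic6 and Otx2 at 0, and 3272 CPM in NIHL cells, and the erythroid markers to 2244 and 91.9 CPM, and their part was not tested.

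Gjb2 and Gjb6 followed each other closely from class to class, with a Pearson correlation of 0.96 between their log2(CPM + 1) over 46 points, the 23 classes in each library. The points of a library share its depth and free RNA, so the value is a description. The balance of the pair differed between classes. Cluster 28 had 3.09 Gjb2 UMIs per Gjb6 UMI in Drug-NIHL (2.72 to 3.52) and 3.14 in NIHL (2.82 to 3.51). Supporting cells had 1.89 (1.69 to 2.11) and 2.23 (1.98 to 2.52), and fibrocytes 1.48 (1.39 to 1.59) and 1.81 (1.68 to 1.96). Strial intermediate cells had 0.844 in Drug-NIHL (0.774 to 0.920) and 0.739 in NIHL (0.667 to 0.819), and leptomeningeal cells 0.859 and 0.809, so Gjb6 UMIs outnumbered Gjb2 UMIs there. Capture of each transcript may differ, so the balance is read between classes and not as a ratio of molecules.

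**Figure D4:**
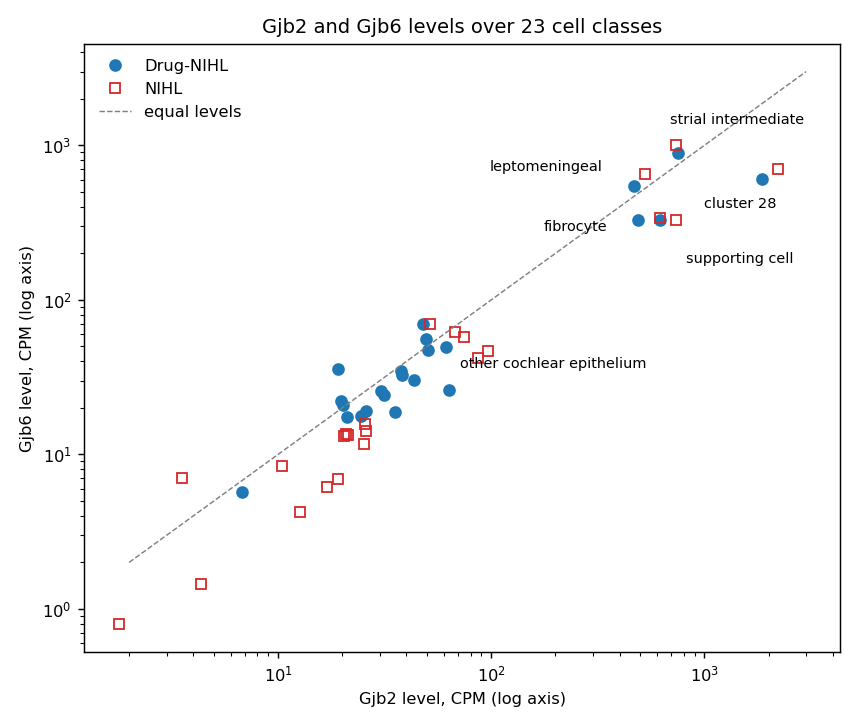
Gjb2 CPM (x, log axis) against Gjb6 CPM (y, log axis) in 23 classes, Drug-NIHL as filled circles and NIHL as open squares, with a dashed line of equal levels. Cluster 28 and supporting cells lie on the Gjb2 side of the line and strial intermediate and leptomeningeal cells on the Gjb6 side in both libraries.

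The pair also met in the same cells. In strial intermediate cells, 82.4% of 443 Drug-NIHL cells with a Gjb2 UMI also held a Gjb6 UMI, against 54.6% of the cells without one, and in NIHL the shares were 84.9% of 271 and 61.8%. In supporting cells the shares were 45.1% of 410 against 20.4% in Drug-NIHL, and 53.2% of 308 against 19.2% in NIHL. Cells with a Gjb2 UMI were deeper in each case, with medians of 1697 against 1166 UMIs in Drug-NIHL and 2310.0 against 1180.0 UMIs in NIHL intermediate cells, and the part of depth was not tested.

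In nerve, Gjb1 was highest in oligodendrocytes, the myelinating glia of the central part of the auditory nerve, and not in Schwann cells. It had 556 CPM in 327 Drug-NIHL and 757 CPM in 215 NIHL oligodendrocytes. Cluster 14, led by Ceacam10, Them5 and Igfbp6 and unnamed although 7 Schwann markers were detected in it, had 228 and 249 CPM, and myelinating Schwann cells had 154 and 156 CPM. No neighbouring intervals overlapped among these 3 classes in either library. By number of UMIs, myelinating Schwann cells held 29.0% of Gjb1 in Drug-NIHL and 40.8% in NIHL, and oligodendrocytes 30.6% and 35.2%.

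Gjb1 was lower in Drug-NIHL oligodendrocytes, with a ratio of 0.734 (0.649 to 0.829) from 451 UMIs in Drug-NIHL and 644 UMIs in NIHL, beside 29.6% of genes called lower in that class, where the median log2 ratio was -0.10. Under 14 alternatives the ratio stayed lower, between 0.700 and 0.799. The 8 oligodendrocyte markers summed to 56381 CPM in Drug-NIHL and 65139.9 CPM in NIHL, and the 5 erythroid markers to 11993 and 3815 CPM, with Klf1 at 0 in both. Their part was not tested. Gjc3 had 477 CPM in Drug-NIHL and 425 CPM in NIHL oligodendrocytes, a ratio of 1.12 (0.969 to 1.30) inside the bounds, and the difference between it and Gjb1 was not tested.

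In myelinating Schwann cells, Gjb1 was nearly level between the libraries, with a ratio of 0.988 (0.875 to 1.11) from 427 UMIs in 3470 Drug-NIHL cells and 746 UMIs in 5438 NIHL cells. In cluster 14 the ratio was 0.918 (0.753 to 1.12). Neurons had 26.3 CPM in Drug-NIHL and 21 CPM in NIHL, a log2 ratio of 0.32 (-0.06 to 0.72), the only higher call above the free RNA level among the 28 measured pairs, beside 16.3% of neuronal genes. These levels were close to the free RNA levels of 19.9 CPM in Drug-NIHL and 19.3 CPM in NIHL. The neuronal ratio was inside the bounds with TMM factors (ratio 1.24), with the doublet caller's thresholds (1.18) and without the top cell of each library. Non-myelinating Schwann or satellite glia had 65.0 CPM from 27 UMIs in Drug-NIHL and 13.8 CPM from 14 UMIs in NIHL, a ratio of 4.70 (2.38 to 9.69) beside 19.9% of genes called higher, and its NIHL level was under the free RNA level. Their 11 myelinating Schwann markers summed to 9119 CPM in Drug-NIHL and 7958 CPM in NIHL, and the part of those transcripts was not tested.

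Gjc3 was spread more evenly over the glia. It had 491 CPM in Drug-NIHL and 557 CPM in NIHL myelinating Schwann cells, 477 and 425 CPM in oligodendrocytes, 393 and 453 CPM in cluster 14, and 390.0 and 375 CPM in non-myelinating Schwann or satellite glia. In Drug-NIHL each of these classes overlapped the next in its interval. Strial intermediate cells, which like Schwann cells come from the neural crest, had 228 CPM in Drug-NIHL and 246 CPM in NIHL. Here 21.3% of 553 thinned Drug-NIHL and 26.1% of 318 thinned NIHL cells carried a Gjc3 UMI, against 3.06% of 654 and 4.09% of 489 thinned macrophages. Unthinned, 30.6% of Drug-NIHL and 38.6% of NIHL intermediate cells carried one.

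None of the Gjc3 ratios above the free RNA level passed the bound. They were 0.881 (0.825 to 0.941) in myelinating Schwann cells, 0.867 (0.748 to 1.01) in cluster 14, and 0.931 (0.778 to 1.11) in strial intermediate cells, and in non-myelinating Schwann or satellite glia the log2 ratio was 0.06 (-0.22 to 0.33). With both Schwann classes together, Gjc3 had a ratio of 0.910 (0.855 to 0.968) and Gjb1 of 1.09 (0.965 to 1.22), beside 12.8% of genes called higher and 14.8% lower. Myelinating Schwann cells held 37.3% of all Gjc3 UMIs in Drug-NIHL and 55.4% in NIHL, and they were 18.7% of Drug-NIHL and 34.1% of NIHL cells.

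The nerve pair was also followed cell by cell. Among myelinating Schwann cells, Gjc3 was found in 36.9% of 382 Drug-NIHL cells with a Gjb1 UMI and 29.7% of those without, and in 40.3% of 663 and 35.5% in NIHL. Among oligodendrocytes the shares were 65.4% against 55.8% in Drug-NIHL and 77.9% against 50.0% in NIHL, and cells with Gjb1 were deeper here too.

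In vessels, Gja4 marked the wall cells rather than the lining. Smooth muscle had 259 CPM in Drug-NIHL and 301 CPM in NIHL, pericytes had 232 and 234 CPM, and endothelial cells had 23.7 and 30.6 CPM. The intervals of smooth muscle and pericytes overlapped in both libraries, and both classes stood above the endothelium. After thinning, 15.7% of 204 Drug-NIHL and 18.6% of 199 NIHL pericytes carried a Gja4 UMI, against 1.62% of 924 and 2.41% of 704 endothelial cells and 0.306% of 654 and 0% of 489 macrophages. Unthinned, 17.1% of Drug-NIHL and 20.2% of NIHL pericytes carried one.

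The libraries differed little in Gja4. The log2 ratio was -0.01 in pericytes (-0.34 to 0.32). The ratio was 0.862 (0.712 to 1.05) in smooth muscle and 0.774 (0.527 to 1.14) in endothelial cells, the last from 56 UMIs in Drug-NIHL and 59 in NIHL and past the bound beside 13.5% of endothelial genes called lower. With at least 500 genes required per cell the endothelial ratio was 0.881, and with at least 1000 it was 1.08 and that of smooth muscle 0.699. A small endothelial group of the finer clustering, with Nr5a2, Flt4 and Dll4 among its leading genes, 48 Drug-NIHL and 27 NIHL cells in number, had 111 and 106 CPM of Gja4. It was picked out after its values were seen. Gja5, known from arterial endothelium, gave 3 UMIs in 1635 Drug-NIHL and 5 UMIs in 998 NIHL endothelial cells, too few for a ratio.

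Transcripts of the arterial list were present in the endothelial class, where Gja5 was near 0. In finer endothelial clusters that list summed to 944 CPM in Drug-NIHL and 970 CPM in NIHL (led by Egfl7) and 1061 and 1135 CPM (led by Tmem252). It summed to 823 and 942 CPM in the small group, so the list did not set a cluster of arterial cells apart. Of its 7 genes in endothelial cells, all were measured, none was higher, against 14.6% of genes, and 1, Gkn3, was lower, at 232 CPM in Drug-NIHL and 290.3 CPM in NIHL (ratio 0.798, interval 0.708 to 0.899). Sox17, a transcription factor of arteries, had 410.1 and 418 CPM, and Bmx 122 and 124 CPM. The list's median log2 ratio was -0.05, against -0.02 over all endothelial genes. The 4 capillary and 4 venous genes were all within the bounds there.

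**Figure D5:**
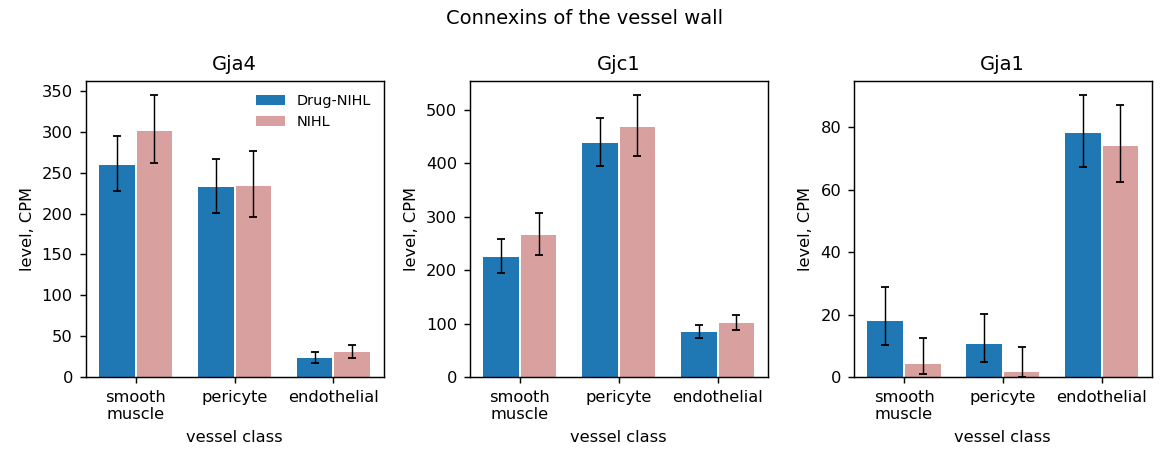
Gja4, Gjc1 and Gja1 (CPM, bars starting at 0, exact Poisson 95% intervals, Drug-NIHL left of NIHL) in smooth muscle, pericytes and endothelial cells. Gja4 and Gjc1 are highest in the wall cells, whereas Gja1 is at 78.2 CPM in Drug-NIHL and 74.1 CPM in NIHL endothelium.

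Gja1 followed another map. Endothelial cells had 78.2 CPM in Drug-NIHL and 74.1 CPM in NIHL, a ratio of 1.06 (0.844 to 1.32), and leptomeningeal cells 46.9 and 49.7 CPM, a ratio of 0.944. Fibrocytes had 11.0 CPM in Drug-NIHL, under the free RNA level, and 13.4 CPM in NIHL (ratio 0.821, interval 0.527 to 1.28). The cells of the osteoblast or osteocyte kind within their cluster 4 had 82.2 CPM from 12 UMIs in Drug-NIHL and 22.6 CPM from 4 UMIs in NIHL. Of the classes compared, osteoblasts or osteocytes were highest, at 199 CPM in Drug-NIHL and 279 CPM in NIHL, from 163 UMIs in 295 cells and 393 UMIs in 509 cells. Their ratio of 0.714 (0.591 to 0.860) was lower beside 28.1% of genes called lower in that class, and was 0.888, inside the bounds, as the mean of each cell's CPM. The class also held fibroblasts. The finer clustering placed 156 of its Drug-NIHL and 251 of its NIHL cells in a fibroblast cluster with Dpt and Pi16 among its leading genes, where Gja1 stood at 88.6 CPM in Drug-NIHL and 77.1 CPM in NIHL (ratio 1.15, interval 0.741 to 1.78). The osteoblast cluster led by Bglap, 111 Drug-NIHL and 222 NIHL cells, had 377 and 431 CPM (ratio 0.876, interval 0.699 to 1.09). Neither was past the bound, and a smaller bone cluster had 10 UMIs in Drug-NIHL and 11 UMIs in NIHL. The 8 osteoblast markers there summed to 34911 CPM in Drug-NIHL and 41231 CPM in NIHL and the erythroid list to 10468 and 2983 CPM, and their part was not tested.

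A large share of the Gja1 UMIs of the Drug-NIHL library lay outside the compared classes. Cluster 29, whose leading genes mix ependymal (Tmem212, Ccdc153) with astrocyte genes (Slc6a11, Aqp4), numbered 281 cells in Drug-NIHL and 36 in NIHL, under the minimum of 100 for a comparison. It had 1192 CPM of Gja1 from 484 UMIs in Drug-NIHL and 877 CPM from 40 UMIs in NIHL. It thus held 42.5% of all Gja1 UMIs in Drug-NIHL and 5.27% in NIHL, while the class of osteoblasts or osteocytes held 14.3% and 51.8%. The finer clustering split it. Its astrocyte cells, 226 in Drug-NIHL and 36 in NIHL, had 448 and 40 of those Gja1 UMIs, at 1694 and 877 CPM. Their Gjb6, which in brain is an astrocyte connexin, stood at 582 CPM in Drug-NIHL from 154 UMIs and 219 CPM in NIHL from 10 UMIs, above Gjb2 at 83.2 CPM from 22 UMIs and 21.9 CPM from 1 UMI. The ependymal cells, 55 in Drug-NIHL and 0 in NIHL, had the other order, with Gjb2 at 155 CPM from 22 UMIs and Gjb6 at 35.3 CPM from 5 UMIs, under the free RNA level, and their Gja1 stood at 254 CPM.

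Genes with the most similar pattern were found by the Pearson correlation of log2(CPM + 1) over the same 46 points, which share libraries and depth, among 12315 genes other than connexins. For Gjb2 they were Sox9, at 0.77, Mpzl2 and Fzd9, and for Gjb6 Ptgds, at 0.78, Mpzl2 and Hhatl. For Gjb1 they were Ado, Dusp15 and Ugt8a, at 0.88, 0.88 and 0.87, and for Gjc3 Igsf11, at 0.91, Cnp and Cmtm5. Gja4 ran with Higd1b, Rgs5 and Notch3, each at 0.89, and Gja1 with Fn1, Ppic and Crispld1, at 0.81, 0.75 and 0.75. Gjb1 and Gjc3 themselves were correlated at 0.73.

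Of 8 genes for connexin trafficking and scaffolding, 7 were measured in Schwann cells and all 7 were within the bounds. Tjp1, the scaffold protein that binds connexin tails, had 195 CPM in Drug-NIHL and 201 CPM in NIHL Schwann cells. In fibrocytes 3 of the 7 measured were lower and none was higher, where 19.6% and 16% of all genes were, and their median log2 ratio was -0.12, against -0.05 over all fibrocyte genes. Tjp1 was among the lower ones there, at 246 CPM in Drug-NIHL and 312 CPM in NIHL (ratio 0.789, interval 0.721 to 0.863). The fibrocyte class was put together differently in the libraries, and the part of that in these values was not tested. The ubiquitin ligase Nedd4 had 439 and 463 CPM and caveolin gene Cav1 281 and 307 CPM, both within the bounds. In the cochlear epithelium all 8 were measured, 1 was higher and 1 lower, where 12.4% and 14.6% of all genes were.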

How the data were processed

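As deposited, each matrix lists whole-number UMI counts without normalization, and its header names Cell Ranger 5.0.1 (per the file headers). Per the submitters' processing notes, the tools were Cell Ranger 5.0, STAR and Seurat 3.2.2 on mm10, also written GRCm38. No header or label used here states the annotation release. The 7 connexins, the marker lists and the other gene lists were chosen with earlier results of these data known.

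Barcodes needed 300 genes, 500 UMIs and at most 20% mitochondrial UMIs, which 20133 of 21773 Drug-NIHL and 17423 of 18545 NIHL barcodes met. Doublets were scored by scrublet in scanpy 1.11.5, and the highest-scoring 8% of each library were removed, 1624 (8.07%) and 1492 (8.56%) with ties, because the caller's own thresholds would have marked 12.9% and 4.62%. Both libraries were clustered together on 3000 variable genes without any connexin, 30 principal components, 15 neighbours and Leiden resolution 1 (leidenalg 0.10.2). A cluster was named from at least 3 markers, each at 2 times the other cells and in 10% of its cells, with a marker among its 10 leading genes and no other type holding more there. Clusters that failed this stayed unnamed and are given by number.

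UMIs were summed by class and library and divided by the class total (CPM). Levels have exact Poisson, shares exact binomial and ratios exact conditional binomial intervals at the 95% level (scipy 1.17.1), for counting error alone, and PCR duplicates were already joined by UMI. Log2 ratios had 0.5 added to each sum. Genes named beside the 7 came from fixed lists, at most 3 a list by UMIs, or were the 3 most alike in pattern among genes with at least 200 UMIs. The ratio step was tested on sums simulated with counting error alone. Of genes simulated without a difference, 78.3% in fibrocytes and 80.7% in Schwann cells were called within the bounds. The rest passed a bound although no difference was simulated. Simulated 2-fold changes in either direction were called right for at least 98% of genes. Coordinates came from GENCODE M21 on GRCm38, which held 32158 of 32285 gene IDs, and promoter windows from RefSeq, where each of the 7 genes matched by symbol. Alternatives changed the filters, the doublets, the resolution, the scaling (edgeR 4.0.16 TMM in R 4.3.3), the weighting of clusters, the UMI minimum and the fold bound. Of these, the caller's thresholds, shared barcodes left out and the Pkp1 group left out were chosen after seeing the data.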

Additional observations from a re-analysis of the deposited data

Results flagged for a closer look

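Pairs were flagged here if they were above the free RNA level in either library. Gjb2 had ratios past the bounds on opposite sides in some classes, and none of these differences was tested. Its ratio of Drug-NIHL over NIHL was 0.788 in fibrocytes, 0.523 in hair cells and 0.705 in the other cochlear epithelium, against 2.99 in cluster 18. The last rests on 39 UMIs in Drug-NIHL and 16 UMIs in NIHL, with the NIHL level under the free RNA level. The lower calls were not stable either. Of 14 alternatives, 9 put the fibrocyte ratio inside the bounds. As the mean of each cell's CPM the ratio was 0.998 in hair cells and 0.910 in the other cochlear epithelium. Gjb1 likewise had a ratio of 0.734 in oligodendrocytes and 4.70 in non-myelinating Schwann or satellite glia, a difference that was not tested. Its higher side rests on 27 UMIs in Drug-NIHL and 14 UMIs in NIHL, with the NIHL level under the free RNA level.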

How the results depend on the processing

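No paired analysis was possible because each group is 1 pooled library and the ears of a mouse cannot be traced in it. The Gjb2 ratio in fibrocytes, 0.788, was 0.936 with connexins allowed in the clustering, 0.695 at resolution 0.5, 0.983 at resolution 2.0, 0.866 as the mean of each cell's CPM, 0.517 with clusters weighted as in NIHL and 0.960 without the Pkp1 group. The Gjb6 ratio in fibrocytes, 0.963, was 1.16 with connexins allowed, 0.860 and 1.22 at resolutions 0.5 and 2.0, 0.598 with NIHL weights and 1.18 without the Pkp1 group. The other clusterings changed which cells counted as fibrocytes. With connexins allowed and at resolution 2.0, the cluster led by Pkp1 genes was unnamed and so outside the class. With connexins allowed and at resolution 0.5, the cluster led by Emilin2 was. These ratios are therefore not independent of the one without the Pkp1 group. In cochlear epithelium NIHL weights gave 0.828 for Gjb2 and 1.03 for Gjb6. Gja4 in endothelium was 1.08 with at least 1000 genes per cell. The cause was not tested. The 33 higher pairs numbered 15 with at least 1000 genes per cell, 18, beside 21 lower, with the doublet caller's thresholds, 53 with at least 5 UMIs and 13 with at least 50 UMIs. The 16 lower pairs numbered 9 with at least 1000 genes and 6 at a bound of 1.5-fold.

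With at least 1000 genes per cell, fibrocytes held 30.9% of Drug-NIHL Gjb2 UMIs and 2.56% of Drug-NIHL and 3.42% of NIHL Gja1 UMIs. Cochlear epithelium held 14.6% and 15.8% of Gjb2, Schwann classes 3.47% and 7.77% of Gjb1 and 4.79% and 18.2% of Gjc3, and endothelium 27.0% and 23.6% of Gja4. Thinned to 1000 UMIs, 15.8% of NIHL fibrocytes carried Gjb6 and 0.865% of Drug-NIHL and 0.643% of NIHL fibrocytes Gja1. In cochlear epithelium 23% and 23.6% carried Gjb2 and 14.8% and 13.6% Gjb6, in Schwann classes 12.7% and 12.2% Gjb1 and 36.2% and 41.0% Gjc3, and in endothelium 1.62% and 2.41% Gja4. Thinned shares cover only the cells deep enough to thin, in Schwann classes 708 of 4006 Drug-NIHL and 1512 of 6605 NIHL cells. Over all Schwann cells, unthinned, Gjb1 was found in 10.2% of each library.

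Some ratios changed direction, nearly always on few UMIs at or under the free RNA level. With the mean of each cell's CPM these were Gjc3 in T or NK cells (0.928), hair cells (0.849) and other cochlear epithelium (0.933), Gjb1 in fibrocytes (0.924) and Gjb2 in oligodendrocytes (1.34). With doublets kept they were Gjb1 in endothelium (0.970), Gjb2 in macrophages (0.95) and oligodendrocytes (1.85), and Gjc3 in other cochlear epithelium (0.989). With the caller's thresholds they were Gjb6 in endothelium (0.771) and oligodendrocytes (0.917), Gjb1 in fibrocytes (0.934), Gjb2 in macrophages (0.758), and Gjc3 in other cochlear epithelium (0.784) and cluster 18 (0.870). Gjb1 in fibrocytes was also 0.857 with connexins allowed, 0.909 and 0.915 at resolutions 0.5 and 2.0, and 0.865 without the Pkp1 group. Without the top cell Gjb2 in oligodendrocytes was 1.82 and Gjb1 in cochlear epithelium 1.12, and with at least 1000 genes Gjc3 in macrophages was 1.03. Of the 28 pairs above the free RNA level, 18 kept their side of the bounds under every alternative run. Those not named above or in the report were Gjb6 in leptomeningeal cells (0.790 as the mean of each cell's CPM) and Gjb2 in cluster 28 (0.750 with at most 10% mitochondrial UMIs).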

Other observations

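Of the 13 other connexin genes, 5 reached 20 UMIs over all cells, and Gja10, Gjd3 and Gje1 had none. Gjc1, a connexin of vascular smooth muscle, had 438 CPM in Drug-NIHL and 467 CPM in NIHL pericytes, 225 and 266 CPM in smooth muscle, and 85.0 and 102 CPM in endothelial cells. Its ratios there were 0.937 (0.798 to 1.10), 0.845 (0.688 to 1.04) and 0.836 (0.684 to 1.02), all within the bounds. Pericytes thus had more Gjc1 than Gja4 UMIs, with 368 against 195 in Drug-NIHL and 268 against 134 in NIHL. Outside the vessels Gjc1 was low, at 17.1 CPM in Drug-NIHL and 26.9 CPM in NIHL fibrocytes. Of the 13 other connexins, 2 were measured in fibrocytes, and both were lower, beside 19.6% of genes called lower. In Schwann cells, cochlear epithelium and osteoblasts or osteocytes 1 was measured and was lower, beside 14.8%, 14.6% and 28.1% of genes. In oligodendrocytes the 1 measured was within the bounds, and in neurons 1 was higher and 1 lower. Gjd2, the connexin of electrical synapses, had 64 of its 68 UMIs in Drug-NIHL and 98 of its 104 UMIs in NIHL in neurons. It stood there at 14 CPM in Drug-NIHL and 19.4 CPM in NIHL. The ratio of 0.722 is past the lower bound, and no interval or share of neuronal genes called lower is given for it.

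Pannexins form related channels that do not join cells. Panx2 was a neuronal gene here, with 663 of 704 UMIs in Drug-NIHL and 652 of 703 UMIs in NIHL, at 145 and 129 CPM (ratio 1.12). Panx3, known from osteoblasts, had 12 of its 20 UMIs in Drug-NIHL and 98 of its 102 UMIs in NIHL in osteoblasts or osteocytes. It stood at 14.6 CPM in Drug-NIHL and 69.5 CPM in NIHL there, a ratio of 0.211 (0.105 to 0.385), beside Gja1 at 0.714 in those cells. The class held 295 Drug-NIHL and 509 NIHL cells, of which 156 and 251 were fibroblasts in the finer clustering, and their part in the ratio was not tested.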
